A study of Mus musculus with 15 samples.

Results

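The GFP control group was described on its own here, as the resting state against which the series sets its other groups. It comprised 5 of the 15 libraries, GFP replicates 1 to 5, chosen by their label, and no measured value entered the choice. Each library held polyA RNA of cardiomyocytes, the contracting muscle cells of the heart, from Rosa-Cas9GFP mice. These mice carry the genome-editing nuclease Cas9 and green fluorescent protein (GFP) at the Rosa locus, and all 3 groups of the series share that allele. The mice had received AAV-GFP, an adeno-associated virus that carries the GFP gene into cells, on postnatal day 1. Hearts were taken at 4 weeks of age, dissociated by Langendorff perfusion, in which digestive enzymes are pumped backwards through the coronary vessels, and the cardiomyocytes were purified by FACS. The other 10 libraries came from mice that received AAV-ATF4 or AAV-DDIT3, 5 each, and enter below only as a check of the labels. The control mice thus carried virus, Cas9 and GFP, and uninjected hearts were not analysed here. No source used here gives the vectors' promoter, the sort gate or the number of mice per library. No label says that the 5 libraries came from separate animals, though their counts of sex-linked genes differ, as given below. SDs measure the spread between libraries, part of which may be technical.

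A working cardiomyocyte shortens when thick filaments of myosin pull on thin filaments of actin inside the sarcomere. Calcium ions, released from the sarcoplasmic reticulum and pumped back into it, switch that movement on and off with every beat. The cell pays for contraction and pumping with ATP made almost wholly in its mitochondria, mainly from fatty acids, and mouse ventricles complete their switch from fetal to adult isoforms of many of these proteins in the weeks after birth.

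Total counts were 6680988 to 7963333 per GFP library and 6217744 to 8317249 over all 15 libraries. Levels are given as CPM (counts per 1000000, with each library's total scaled by edgeR's TMM factor) and, to compare genes, as CPM per kilobase of the deposited gene length. Of 23337 genes in the table, 12855 had at least 1 count in every GFP library, 7266 had none in any, and 11676 reached a mean of 1 CPM. The vector genes followed the labels. Atf4, the transcription factor of the integrated stress response, lay between 50.1 and 79.9 CPM on the unscaled totals in GFP and between 369 and 590 in the ATF4 group. Ddit3, which encodes the stress factor CHOP, lay between 12.1 and 16.2 in GFP and between 621 and 1074 in the DDIT3 group. The GFP libraries were not alike in every respect. The sample labels name SMART-Seq3 for replicate 5 and SMART-Seq2 for the other 4 GFP libraries, whereas the extraction protocol names SMART Seq v4 for all of them, so the chemistry of each library is uncertain. In replicate 5 the 432 genes over 8 kb (of those at or above 10 CPM) lay a median of 0.22 above their 5-library mean on the log2 scale, against -0.19 in replicate 2. The 482 genes under 1 kb lay 0.22 above it in replicate 4, 0.19 above it in replicate 2 and 0.19 below it in replicate 1 (log2 -0.19), with -0.14 in replicate 5. The Y-linked genes Ddx3y, Eif2s3y, Uty and Kdm5d had counts in replicates 1, 2 and 3 (Eif2s3y at 90.8, 84.8 and 103 CPM). They had no count in replicate 5 and at most 0.381 CPM, for Ddx3y, in replicate 4. Xist, the noncoding RNA of the inactive X chromosome, showed the reverse, with 12.6 and 15.4 CPM in replicates 4 and 5 and at most 0.292 CPM in the others. The 5 libraries thus did not all come from the same animal, and each SD spans both patterns.

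The counted transcriptome, in which no protein gene of the mitochondrial genome was found by name, was concentrated in few genes. These served contraction and energy supply. The 10 most abundant genes took 17.8 ± 0.842% of the counts (SD, n = 5) and the 100 most abundant 37.6 ± 0.452%. The first 285 genes held 50% of the counts, or 156 genes when counts were divided by gene length. Only 110 genes reached a mean of 1000 CPM, 1619 reached 100 CPM and 8054 reached 10 CPM. Myh6, the alpha myosin heavy chain and motor of the adult mouse heart, led by counts in every library. It stood at 62978, 44116, 55177, 54761 and 74903 CPM in replicates 1 to 5, a mean of 58387 ± 11412 CPM (SD, n = 5). Replicate 2 was the lowest and replicate 5 the highest, and no other gene exceeded 32799 CPM in any library. Next by counts were Atp2a2 at 26568 ± 4639 CPM, Tpm1 at 17801 ± 2721 CPM, Actc1 at 17311 ± 2177 CPM and Tnnt2 at 12321 ± 1780 CPM. The 15 leading genes by counts closed with Atp5b, Mb, Slc25a4, Mybpc3, Atp5a1, Tnni3, Myl3, Pln, Lpl and Actn2. Lpl, lipoprotein lipase, which frees fatty acids from blood lipoproteins, was among them at 5396 ± 772 CPM.

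Per kilobase the order changed, because Myh6 is long and most of its partners are short. Actc1, cardiac alpha actin, the backbone of the thin filament, came first with 12906, 10283, 13987, 13670 and 11424 CPM per kilobase in replicates 1 to 5. Tnnt2, cardiac troponin T, which ties the troponin complex to tropomyosin, followed with 11033, 12343, 9118, 10502 and 8640 CPM per kilobase. Myh6 was next with 10360, 7257, 9077, 9008 and 12322 CPM per kilobase. The ranges of these 3 genes overlapped, so that their order among themselves did not exceed the spread between libraries. Tnni3 (8298 ± 1130), Mb (7845 ± 896), Slc25a4 (7714 ± 1047), Myl3 (7360 ± 961) and Atp5b (6503 ± 683 CPM per kilobase) formed the next step, again with overlapping ranges. Mb is myoglobin, the oxygen store of muscle, Slc25a4 the carrier that trades ATP for ADP across the inner mitochondrial membrane, and Atp5b the catalytic beta subunit of ATP synthase. Of the 30 most abundant genes per kilobase, 2 belonged to none of the functional lists used here: Fth1, the ferritin heavy chain that stores iron, at 2051 CPM per kilobase, and Mdh1, the cytosolic malate dehydrogenase, at 2153.

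**Figure D1:**
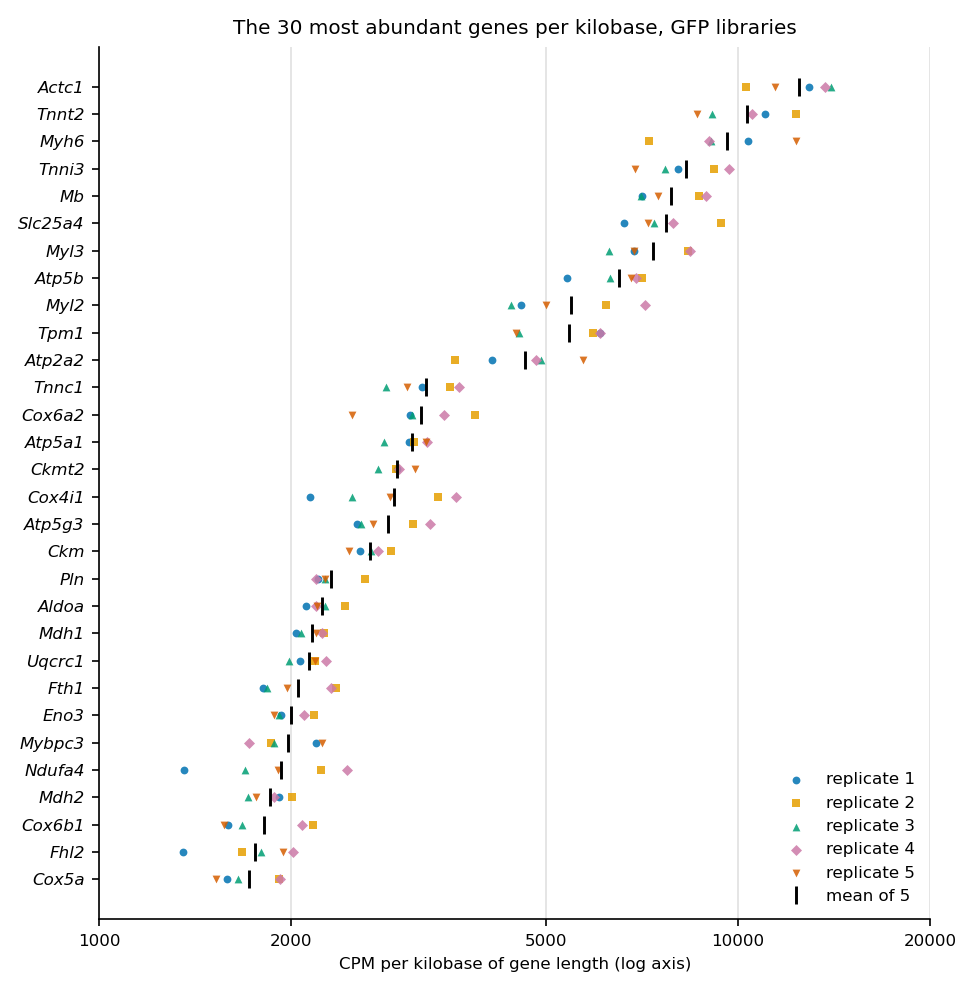
CPM per kilobase of the 30 most abundant genes per kilobase in each of the 5 GFP libraries (points; log axis) with the mean of 5 (bar). Actc1 leads at a mean of 12454 CPM per kilobase, the first 3 genes overlap in range, and Myh6 and Atp2a2 are highest in replicate 5 and lowest in replicate 2 while Tnnt2 and Tnni3 are lowest in replicate 5.

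The thick filament list held 8.05 ± 1.04% of the counts (12 genes) and the thin filament list 5.80 ± 0.612% (18 genes). Per kilobase the order was reversed, at 5.49 ± 0.438% and 8.80 ± 0.659%. Within the thick filament, Myl3 and Myl2, the ventricular essential and regulatory light chains (Myl2 at 5472 ± 1171 CPM per kilobase), stood beside Myh6. Mybpc3, the myosin-binding protein that brakes the cross-bridges, was at 1974 ± 224 CPM per kilobase, and the M-band proteins Myom2 and Myom1, which crosslink thick filaments, at 419 and 267 CPM per kilobase. Within the thin filament, Tpm1, tropomyosin, was at 5429 ± 830 and Tnnc1, the calcium sensor troponin C, at 3250 ± 350 CPM per kilobase. The 5 leading thin filament genes were far above the rest of their list: Lmod2, a leiomodin that elongates thin filaments, came sixth with 207 CPM per kilobase. Replicate 5 had the highest thick filament share (9.51% against 6.83 to 8.65% in the others) and the lowest thin filament share (4.81% against 5.62 to 6.26%). The thick filament order rests largely on 1 gene. Myh6 alone took 6.38, 4.48, 5.65, 5.41 and 7.19% of the counts in replicates 1 to 5. Of 9 thick filament genes at or above 10 CPM, 4 were highest in replicate 5 (44.4%), against 28.0% of all genes at that level. Of 13 thin filament genes at or above 10 CPM, 8 were lowest in replicate 5, against 22.8% of all genes at that level. Myh6 has a deposited length of 6079 bases and Actc1 of 1390, and replicate 5 is the library in which genes over 8 kb were higher and genes under 1 kb lower than their means. The part of gene length in this split was not tested.

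Sequences just before the start sites of 3 leading sarcomere genes show the kind of elements that sarcomere promoters are known to carry, and are printed for that reason. They are the 250 bases before the RefSeq transcription start (GRCm38.p6, 5′ to 3′ on the gene's strand). Capitals mark a CArG box, the binding site of serum response factor SRF, in Actc1, and the TEAD-type motif CATTCC, or GGAATG where it lies on the other strand, in Tnnt2 and Myh6.
Actc1 promoter, chr2:114052876-114053125, minus strand: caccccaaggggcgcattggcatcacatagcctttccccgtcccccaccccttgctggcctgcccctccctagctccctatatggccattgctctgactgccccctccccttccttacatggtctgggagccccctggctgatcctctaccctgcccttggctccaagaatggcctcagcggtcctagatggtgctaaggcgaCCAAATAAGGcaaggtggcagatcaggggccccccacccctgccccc
Tnnt2 promoter, chr1:135836084-135836333, plus strand: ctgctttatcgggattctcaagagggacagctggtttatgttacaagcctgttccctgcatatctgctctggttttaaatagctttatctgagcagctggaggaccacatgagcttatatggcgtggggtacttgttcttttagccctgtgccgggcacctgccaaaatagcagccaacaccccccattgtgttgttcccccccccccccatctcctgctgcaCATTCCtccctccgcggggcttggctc
Myh6 promoter, chr14:54966608-54966857, minus strand: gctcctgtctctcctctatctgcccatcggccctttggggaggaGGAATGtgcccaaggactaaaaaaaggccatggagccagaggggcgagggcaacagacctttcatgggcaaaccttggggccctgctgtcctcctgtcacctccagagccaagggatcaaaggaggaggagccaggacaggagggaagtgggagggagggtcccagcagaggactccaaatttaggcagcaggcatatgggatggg

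A CArG box, searched on both strands, stood in 6 of 34 promoters of the thick and thin filament lists (17.6%; Acta1, Actc1, Myl3, Myl7, Myom1 and Nebl) against 1.47% of all 32851 RefSeq promoters. CATTCC on either strand stood in 10 of the 34 (29.4%) against 12.6% of all. In the respiratory chain and ATP synthase lists no promoter of 73 held a CArG box and 8 held CATTCC. CArG boxes were not particular to the filament lists, since 5 of 23 promoters of immediate early genes (21.7%; Egr2 and Zfp36) held one. Some genes have several promoters. Counted by gene, 6 of 26 in the filament lists (23.1%) and 2 of 19 immediate early genes (10.5%) held one, against 1.62% of all genes. Srf, whose protein binds CArG boxes, was at 21.0 CPM per kilobase and Tead1, a TEAD factor, at 4.08. A match of letters is a description and shows no binding.

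Among scaffold proteins of the sarcomere, 30 of 30 listed genes reached 10 CPM and together held 3.09 ± 0.115% of the counts, a share that differed by at most 1.10-fold between libraries. Fhl2, a LIM-domain partner of titin, led at 1756 CPM per kilobase, followed by Actn2, the alpha-actinin that crosslinks actin at the Z-disc (1608), Tcap, which caps the end of titin (1507), and Csrp3, the muscle LIM protein (1397). Ttn, titin, the spring that spans from Z-disc to M-band, was seventeenth by counts at 4371 ± 395 CPM. Its deposited length of 104320 bases brought it to 41.9 ± 3.78 CPM per kilobase. The small heat shock proteins Cryab and Hspb6, chaperones of the sarcomere, were at 1110 and 852 CPM per kilobase. Ankrd1, a stretch-responsive ankyrin repeat protein, varied most in this list, with 645, 1198, 284, 415 and 523 CPM in replicates 1 to 5. It was highest in replicate 2 and lowest in replicate 3, a 4.22-fold range.

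Genes of calcium cycling took 4.06 ± 0.424% of the counts, most of it from the uptake side. Atp2a2, the SERCA pump that returns calcium to the sarcoplasmic reticulum, had 23614, 20657, 28143, 27627 and 32799 CPM in replicates 1 to 5. Replicate 5 was the highest and replicate 2 the lowest. Pln, phospholamban, which holds the pump back until it is phosphorylated, was at 2304 ± 174 CPM per kilobase against 4641 ± 810 for Atp2a2. Its coefficient of variation over the 5 libraries (SD over mean, CV) was 7.57%, against 17.5% for Atp2a2. Casq2, the calcium buffer of the reticulum, was at 809 ± 74.8 CPM per kilobase, and S100a1, a calcium sensor that acts on the pump and the release channel, at 822. Ryr2, the release channel itself, was at 868 ± 201 CPM, or 51.6 ± 11.9 per kilobase, which places the channel far below the pump. Slc8a1, the sodium-calcium exchanger of the surface membrane, was lower still at 8.91 ± 3.10 CPM per kilobase. Fkbp1b, a ryanodine receptor partner, was the only list member under 1 CPM, at 0.376 CPM. Of the ion channel and pump list, 37 of 39 genes reached 1 CPM. Among its most abundant members were Gja1, connexin 43, the channel that couples ventricular cells (483 CPM per kilobase), Fxyd1, phospholemman, a regulator of the sodium pump (427), and Atp1b1, the beta subunit of that pump (180). Cacna1c, the L-type calcium channel, was at 21.1 CPM per kilobase. In the list of intercalated disc and costamere genes, which couple cells to each other and to the matrix, all 24 reached 10 CPM, led by Popdc2 at 452 and Ctnna1, alpha-catenin, at 254 CPM per kilobase.

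Genes of mitochondrial ATP production stood at high levels over nearly the whole of their lists. Complexes II to IV with cytochrome c held 2.71 ± 0.293% of the counts, complex I 1.77 ± 0.214%, ATP synthase 2.87 ± 0.255% and the tricarboxylic acid (TCA) cycle with pyruvate dehydrogenase 2.87 ± 0.0557%. Per kilobase these shares were 6.82, 4.34, 4.6 and 2.81%. Of the 100 most abundant genes per kilobase, 19 belonged to complexes II to IV, 12 to complex I and 10 to ATP synthase. The leaders were Cox6a2 (3196 ± 515 CPM per kilobase), the muscle form of a cytochrome oxidase subunit, Cox4i1 (2898), Uqcrc1, a core subunit of complex III (2133), and Ndufa4 (1926). In complex I, Ndufb9 (1512) and Ndufb8 (1463) led. Ndufs5 had no count in any library. The median complex I gene was at 470 and the median gene of complexes II to IV at 822 CPM per kilobase, against 13.4 for all 8054 genes at or above 10 CPM. The subunit genes of 1 complex were not at 1 level. In ATP synthase, Atp5b and Atp5a1 of the catalytic head (6503 and 3092) and Atp5g3 of the rotor ring (2835) stood above Atp5o (1235), Atp5l (21.3) and Atp5g2 (1.46 CPM per kilobase). Atp5o still lay above the list median of 798 CPM per kilobase. The levels of Atp5l, Atp5o and Atp5g2 are uncertain, since 84.8, 45.6 and 38.3% of their 50-base words also stand in other genes. The value was 0% for Atp5g3 and 0.857% for Atp5b. None of the 13 protein genes of the mitochondrial genome was found by name among the genes counted, so all shares given here are of counts without them.

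The subunit genes took a like order of libraries. Of 35 complex I genes at or above 10 CPM, 27 were highest in replicate 4, 7 in replicate 2 and 1 in replicate 5, and 22 were lowest in replicate 1. Of 28 genes of complexes II to IV, 21 were highest in replicate 4 and 20 lowest in replicate 1, and of 16 ATP synthase genes 11 and 11. Over all 8054 genes at this level 1560 were highest in replicate 4 and 1689 lowest in replicate 1. Replicates 4 and 2 are the libraries in which genes under 1 kb were higher, and the part of gene length in this order was not tested. TCA cycle genes took another order: 13 of 24 (54.2%) were highest in replicate 5, against 28.0% of all 8054 genes, and 10 were lowest in replicate 1. Their summed share lay between 2.81 and 2.95%, a 1.05-fold range. Mdh2, malate dehydrogenase (1852 CPM per kilobase), Idh2, isocitrate dehydrogenase (1609), and Cs, citrate synthase (853), were among the most abundant genes of the cycle.

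**Figure D2:**
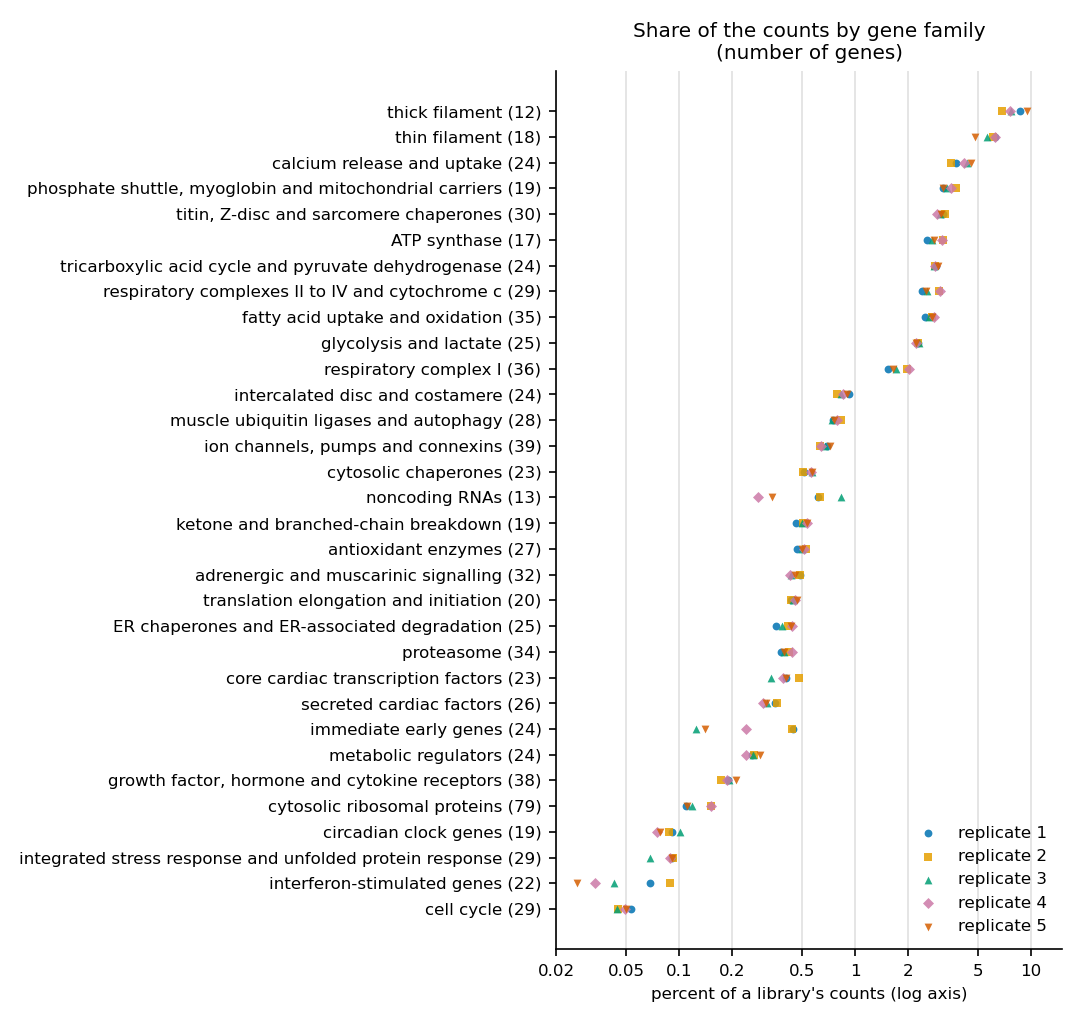
Percent of each library's counts (log axis) taken by 32 gene families, with the number of genes found in each, in the 5 GFP libraries. Thick and thin filament lead, glycolysis and TCA cycle points lie nearly on top of each other, and noncoding RNAs, immediate early genes and interferon-stimulated genes spread widest.

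Genes of fatty acid use held 2.68 ± 0.121% of the counts and those of glycolysis and lactate 2.26 ± 0.0438%. Fabp3, the fatty acid binding protein of heart, was at 1646 CPM per kilobase, Lpl at 1333 ± 191, Etfb, which passes electrons from fatty acid oxidation to the respiratory chain, at 1208, and Acaa2, the last enzyme of mitochondrial beta-oxidation, at 1173. The dehydrogenases of beta-oxidation for very long, long and medium chains, Acadvl, Acadl and Acadm, were at 983, 934 and 924 CPM per kilobase. In glycolysis Aldoa, aldolase A, led at 2234 and Eno3, the muscle enolase, followed at 1996 ± 128 CPM per kilobase. Ketone and branched-chain breakdown was led by Oxct1, which activates ketone bodies (353). The shuttle that moves high-energy phosphate from mitochondria to myofibrils was carried by Ckmt2 (2928 ± 138) and Ckm (2656 ± 155 CPM per kilobase), the mitochondrial and cytosolic creatine kinases. Pdk4, the kinase that shuts off pyruvate dehydrogenase, had 805, 228, 401, 339 and 530 CPM in replicates 1 to 5. Ucp3, a mitochondrial uncoupling protein, had 101, 26.3, 96.3, 33.8 and 66.3 CPM. Cpt1a, the liver-type gatekeeper of mitochondrial fatty acid entry, had 106, 46.7, 94.9, 63.3 and 73.4 CPM. All 3 were highest in replicate 1 and lowest in replicate 2, with replicates 3 and 5 above replicate 4. These 3 genes were chosen from their lists after their values were seen.

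Adult or muscle-type isoforms dominated most pairs in which the heart expresses 1 of 2 related genes. Myh6 made up 99.5 ± 0.291% of Myh6 plus Myh7 per kilobase. Myh7, the beta myosin heavy chain of the fetal and stressed heart, had 282, 290, 531, 123 and 247 CPM in replicates 1 to 5. It was highest in replicate 3 and lowest in replicate 4, a 4.34-fold range. Acta1, skeletal actin, was highest in replicate 3 too and lowest in replicate 4, with 239, 194, 252, 109 and 175 CPM, and Actc1 made up 98.9 ± 0.312% of that pair. Tnni3 made up 99.98% of cardiac plus slow skeletal troponin I, with Tnni1, the fetal form, at 1.30 ± 0.536 CPM per kilobase. In these 3 pairs the adult gene exceeded its partner in every library. Words of 50 bases shared between genes make the Myh6 and Myh7 split less sharp, since 21.9% of the Myh6 words and 26.9% of the Myh7 words also stand in transcripts of another gene.

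Muscle-type subunits also led in energy metabolism. Ckm made up 98.0 ± 0.274% of Ckm plus Ckb, Slc25a4 96.0 ± 0.512% of Slc25a4 plus Slc25a5, Cox6a2 94.5 ± 0.473% of its pair with Cox6a1, and Slc2a4, the insulin-responsive glucose transporter, 96.9 ± 0.875% of its pair with Slc2a1. Pgam2 made up 99.7% of its pair with Pgam1 and Eno3 99.99% of its pair with Eno1. Some partners share sequence with other genes, at 41.5% of the 50-base words of Pgam1, 49.5% for Eno1, 53.6% for Eef1a1 and 46.6% for Slc25a5, against 0% for Pgam2 and Eno3, so that the shares of these 4 pairs are uncertain. The balance was closer in Cox8b (85.2 ± 1.62% of the pair with Cox8a), Eef1a2 (73.8 ± 3.81% with Eef1a1), Cox7a1 (68.6 ± 1.04% with Cox7a2) and Ldhb (66.3 ± 2.74% with Ldha). Hk2 and Cpt1b were exceeded by their partners as counted. The Cpt1b pair is uncertain too, since 80.4% of the 50-base words of Cpt1b stand in another gene, against 0% for Cpt1a. Hk2, the insulin-regulated hexokinase, made up 31.9 ± 3.98% of its pair with Hk1, and Cpt1b, the muscle form of carnitine palmitoyltransferase, 23.7 ± 6.26% of its pair with Cpt1a.

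**Figure D3:**
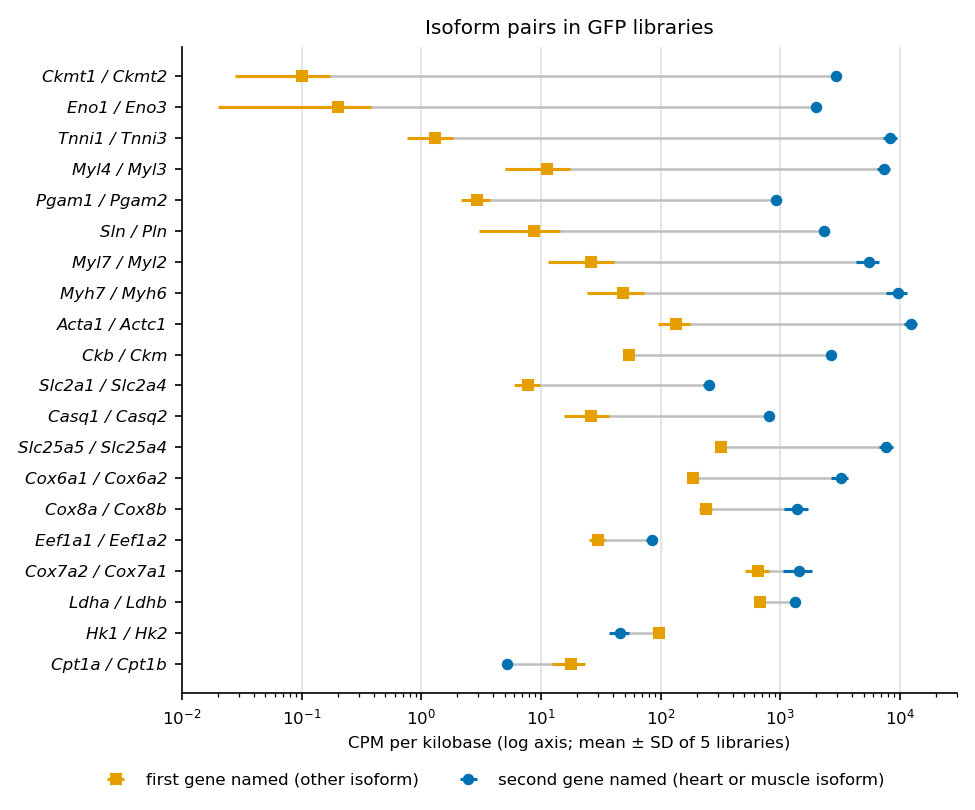
CPM per kilobase (log axis, mean ± SD of 5 libraries) of both genes of 20 isoform pairs. The heart or muscle isoform (circles) lies above its partner (squares) in 18 pairs, by the widest gap for Ckmt2 and Eno3, and below it for Hk2 and Cpt1b.

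Some genes that every cell uses were listed at very low levels. The 79 genes of cytosolic ribosomal proteins, which in most cells are among the most abundant messages, together held 0.129 ± 0.0214% of the counts. Their median was 7.81 CPM per kilobase, Rplp0 led at 143 and Rpl4 followed at 115, 9 were under 1 CPM and Rpl26 had no count at all. Gapdh, the usual reference gene of glycolysis, was at 72.5 ± 7.84 CPM per kilobase, against 2234 for Aldoa and 637 for Tpi1, its neighbours in the pathway. Pgk1, the next enzyme, was at 14.8 and Eno1 at 0.202 CPM per kilobase. Many of these genes have near-identical copies in the genome. Of the 50-base words in the GENCODE vM21 transcripts of Gapdh, 58.4% also stood in transcripts of another gene, nearly all of them pseudogenes (58.2%). The value was 68.0% for Pgk1, 49.5% for Eno1, 44.0% for Rpl26 and 21.7% for Ndufs5. Among ribosomal protein genes the median was 38.3%, and 27 of 79 (34.2%) shared at least 50% of their words, against 3.10% of all genes at or above 1 CPM. Those 27 had a median of 4.08 CPM per kilobase and the other 52 of 11.2. Cpt1b shared 80.4% of its words, none with pseudogenes: in the RefSeq table its gene (chr15:89416405-89425862) lies wholly within a read-through gene that joins it to Chkb. The 5 values of Cpt1b, 14.8, 15.2, 14.8, 15.5 and 14.8 CPM, had a CV (SD over mean) of 2.21%, against a median of 15.1% for genes of 10 to 50 CPM. Whether reads that match several genes were counted is not given in the sources used here, so the levels of these genes are uncertain, and the part of shared sequence in them was not tested. High values also stood beside shared sequence: Pln shared 56.2% of its words, Etfb 57.7% and Nppa 53.4%, none with pseudogenes, so their levels carry the same doubt. A gene listed with no count could hold up to 3 counts, or 0.377 to 0.449 CPM in these libraries, which covers counting error only.

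Transcription factors of the heart stood far below the structural genes they are known to control. Of 23 listed regulators, 22 reached 1 CPM and Hand1, a factor of the embryonic left ventricle, had no count. Csrp3 and Ankrd1, cofactors that also sit in the sarcomere, led. Among the DNA-binding factors Gata4 was at 79.4 ± 7.16, Mef2a at 63.3, Mef2d at 41.4, Nkx2-5 at 36.6 ± 2.23, Gata6 at 33.0, Tbx20 at 19.3 and Tbx5 at 8.82 ± 2.34 CPM per kilobase. Nkx2-5, the homeobox factor that marks the cardiac lineage, had 59.8, 53.5, 57.3, 57.3 and 51.2 CPM in replicates 1 to 5, and Mef2c, a MADS-box factor, 87.2, 85.2, 92.8, 101 and 89.9 CPM. Their highest and lowest libraries differed by 1.17-fold and 1.19-fold, whereas Tbx5 spanned 24.8 to 49.6 CPM. Of the metabolic regulators, Ppargc1a, the coactivator of mitochondrial genes, was at 36.0, Esrra, a nuclear receptor that works with it, at 47.7, and Ppara, the receptor for fatty acids, at 8.36 CPM per kilobase.

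Receptors were scarce next to the machinery they act on. Adrb1, the beta-1 adrenoceptor through which noradrenaline drives the heart, had 41.5, 32.6, 58.9, 39.7 and 31.1 CPM, a mean of 16.4 ± 4.45 per kilobase. Adrb3, another beta adrenoceptor, was at 0.0252 CPM. The alpha-1 receptors Adra1b, Adra1a and Adra1d were at 28.7 ± 5.30, 4.18 ± 1.39 and 0.825 ± 0.268 CPM per kilobase, and their ranges did not overlap. Chrm2, the muscarinic receptor that slows the heart, was at 58.7 ± 7.91 CPM per kilobase, above each adrenoceptor named here. Downstream, Prkar1a and Prkaca, the regulatory and catalytic subunits of protein kinase A, were at 271 and 230 CPM per kilobase and Gnas, the stimulatory G protein, at 223. Of 38 growth factor, hormone and cytokine receptors 31 reached 1 CPM. They were led by Ghr, the growth hormone receptor (69.1 ± 4.8 CPM per kilobase), Il6st, the shared receptor of the interleukin-6 family (52.8), Bmpr1a (31.9) and Ednra, the endothelin receptor (29.7). Agtr1a, the angiotensin receptor, was at 26.1 ± 7.52 and Agtr2 had no count. Among secreted factors, the natriuretic peptides Nppa (335 ± 175) and Nppb (193 ± 81.2), which lower blood volume, Vegfb (224 ± 21.4) and Cpe, a carboxypeptidase that trims peptide hormones (218), led per kilobase. Fgf21 and Gdf15, hormones of cellular stress, were at 0.0554 and 0.496 CPM.

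Stress and cell cycle genes took small shares. The 29 genes of the integrated stress and unfolded protein responses held 0.0862 ± 0.00999% of the counts. Atf3, an early stress factor, Xbp1, the spliced factor of the endoplasmic reticulum response, Atf4 and Ppp1r15a, which reverses the block on translation, led at 54.0, 47.8, 39.5 and 29.6 CPM per kilobase. The amino acid synthesis genes Phgdh and Psat1, known targets of Atf4, were at 0.102 and 1.24 CPM. The level of Phgdh is uncertain, as 61.3% of its 50-base words stand in other genes, and so is that of Ccnb1 (40.6%). Of 29 cell cycle genes 10 reached 10 CPM. Cdk4, Ccnd3 and Ccnd2, which act early in the cycle, were at 38.8, 30.5 and 21.5 CPM per kilobase. Ccnb1, the mitotic cyclin, was at 0.171, Aurkb, a mitotic kinase, at 0.243 and Mki67, the proliferation marker, at 0.336 CPM per kilobase (0.396, 0.476 and 3.38 CPM). Fewer cells in a state and less RNA per cell cannot be told apart in these bulk libraries, here or in the marker counts that follow.

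Markers of other cells were low but not absent. All 7 ventricular markers reached 1 CPM, from Myl3 at 7360 through Kcnip2 at 145, Lrrc10 at 80.2 and Irx4 at 26.3 to Hey2 at 1.42 CPM per kilobase. Of 14 atrial markers 12 reached 1 CPM, and the list took 0.0900, 0.111, 0.105, 0.0586 and 0.0677% of the counts in replicates 1 to 5. Of its 6 genes at or above 10 CPM, 2 were highest in replicate 3 and 2 in replicate 2. Myl7 and Myl4, the atrial light chains, were highest in replicate 3, with 11.5, 13.2, 30.7, 13.3 and 8.74 CPM for Myl7 in replicates 1 to 5. Myl2 still made up 98.8% of its pair with Myl7 in that library and 99.6 to 99.7% in the others. Sln, sarcolipin, the atrial counterpart of Pln, was highest there too, with 9.50 CPM against 2.22 to 4.58 in the others. The 16 endothelial markers all reached 10 CPM and together took 0.120, 0.124, 0.0918, 0.125 and 0.0614% of the counts in replicates 1 to 5, and 15 of the 16 were lowest in replicate 5. Pecam1, the adhesion molecule of endothelium, had 120, 107, 75.3, 106 and 62.3 CPM. The 14 fibroblast markers took 0.0772, 0.0927, 0.0590, 0.0826 and 0.0390%, with 8 of the 10 at or above 10 CPM lowest in replicate 5. Col3a1, a fibrillar collagen, had 218, 220, 132, 215 and 95.4 CPM. Replicate 5 was thus the lowest in both lists, followed by replicate 3. Of 12 pericyte and smooth muscle markers 9 reached 10 CPM, and the list took 0.412, 0.427, 0.414, 0.364 and 0.363% of the counts. It was led by Des, desmin (1345 CPM per kilobase), Acta2 (248) and Abcc9 (59.9), which cardiomyocytes are also known to express, and Des is a member of the Z-disc list too. Rgs5 and Pdgfrb, which mark pericytes, were at 16.9 and 9.09 CPM per kilobase. None of the 14 macrophage markers reached 10 CPM and their sum was 0.00246 to 0.00389% of the counts. Of 13 lymphocyte, neutrophil and mast cell markers only Kit reached 1 CPM. Cd3e, Nkg7, S100a8 and Cpa3 had no count. Of the adipocyte markers none reached 1 CPM, and of 16 skeletal muscle markers only Ckm, Myl1 and Tnni2 did, with Myh1, Myh3 and Myh4 at 0. The adult beta globin listed as Beta-s had 4.38, 15.4, 0.292, 2.03 and 1.04 CPM, highest in replicate 2. The alpha globins Hba-a1 and Hba-a2 had no count, but 67.5% and 86.9% of their words stand in another gene, so that no reading is possible for them.

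Libraries differed little for most genes. The common biological coefficient of variation, edgeR's estimate of the spread between libraries beyond counting error, was 17.3% over the 10617 genes that passed its filter on low counts, and 15.6% without replicate 5. The median CV fell from 28.3% for genes of 1 to 10 CPM to 15.1% at 10 to 50 CPM and 10.7% from 1000 CPM on. Counting error alone would give medians of 18.4, 7.58 and 0.894% there, so that in abundant genes nearly all of the spread lay between libraries. Of 3262 genes at or above 50 CPM, 195 (5.98%) spanned at least 2-fold and 21 (0.644%) at least 4-fold over the 5 libraries. The steadiest was Surf4, a cargo receptor of the endoplasmic reticulum, with 268, 265, 265, 268 and 260 CPM in replicates 1 to 5 (CV 1.18%). Next in order were Abcf1, Stx12, Pttg1ip, Ubqln4, Dcakd, Rilpl1, G3bp1, Pex6 and Sod2. Sod2, the superoxide dismutase of mitochondria, was the most abundant of the 10, at 933 CPM and a CV of 2.14%. By family, the median CV of genes at or above 10 CPM was lowest for phosphate shuttle and carrier genes (6.94%), glycolysis (8.04%) and the TCA cycle (8.33%), against 13.9% for all genes at that level. It was highest for sex-linked genes (91.4%), immediate early genes (45.5%), interferon-stimulated genes (44.2%) and noncoding RNAs (35.4%).

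**Figure D4:**
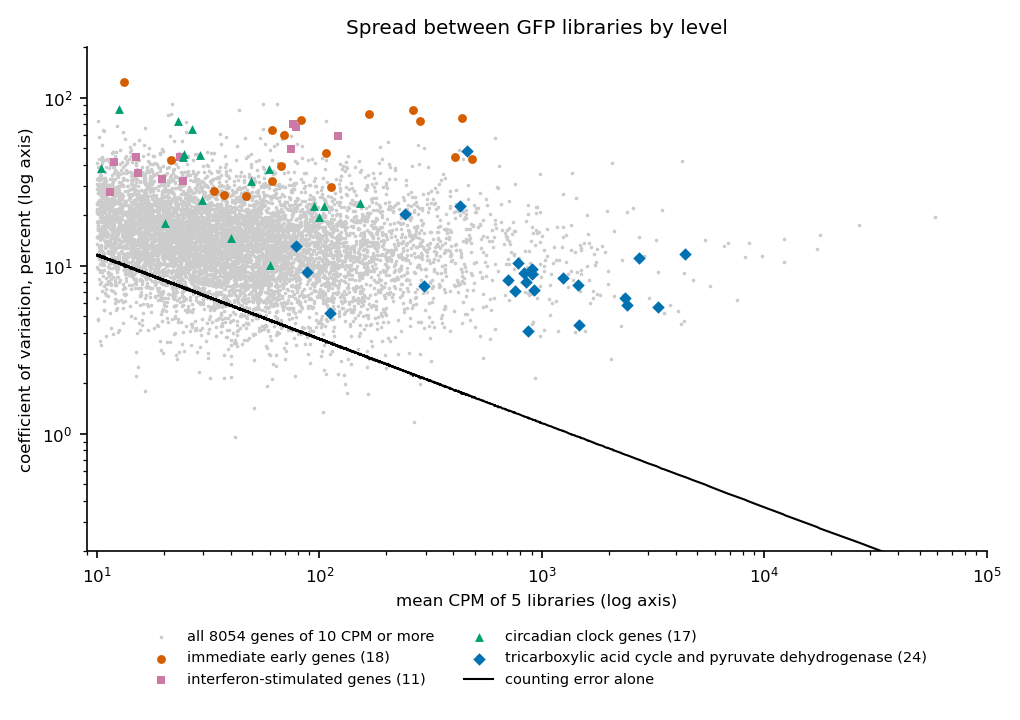
Coefficient of variation over the 5 GFP libraries against mean CPM (both log axes) for 8054 genes, with 4 lists in colour and the CV that counting error alone would give as a line. TCA cycle genes lie low at high CPM, with Pdk4 as the highest of them, while immediate early and interferon-stimulated genes lie at the upper edge.

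The most variable genes at or above 50 CPM fell into a few families. After the Y-linked Eif2s3y and Ddx3y, the order by CV was Fos, Egr1, Btg2, Junb, Nr4a1, Irs2, H2-K1, B2m, Cul3, Ier2, Ptgds, Zfp36 and H2-D1. Fos, Egr1, Junb, Nr4a1, Btg2, Ier2 and Zfp36 are immediate early genes, transcribed within minutes of a stimulus from factors already in the cell. Fos, a subunit of the AP-1 factor, had 525, 464, 19.1, 210 and 100 CPM in replicates 1 to 5, a 27.4-fold range. Nr4a1, an orphan nuclear receptor, had 555, 427, 49.8, 250 and 140 CPM. Egr1, a zinc finger factor, had 213, 372, 33.2, 154 and 67.5 CPM. For these 3 genes replicates 1 and 2 were high, replicate 3 was the lowest and replicates 4 and 5 lay between. Of 18 genes of this list at or above 10 CPM, 15 were higher in both replicates 1 and 2 than in any other library (83.3%), against 13.7% of all 8054 genes. The summed share of the list was 0.446, 0.441, 0.125, 0.240 and 0.140%. Ier3 was an exception, at 28.9, 25.4, 48.1, 37.9 and 28.0 CPM, highest in replicate 3. The inducible heat shock genes Hspa1a and Hspa1b shared part of the order. Hspa1a had 43.7, 30.2, 4.53, 24.8 and 4.15 CPM, again highest in replicates 1 and 2 and low in replicates 3 and 5. These 2 genes share 66.3% and 62.3% of their words with other genes, so their split between each other is uncertain. Irs2, an adaptor of the insulin receptor that is not on the list, had 226, 133, 35.4, 94.4 and 46.0 CPM, the same order of libraries as Nr4a1.

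The Fos promoter is printed because it heads this list and carries elements that immediate early promoters are known for. Capitals mark TGACGT, the core of a cyclic AMP response element, and the TATA box (RefSeq, GRCm38.p6, 250 bases before the start, 5′ to 3′).
Fos promoter, chr12:85473640-85473889, plus strand: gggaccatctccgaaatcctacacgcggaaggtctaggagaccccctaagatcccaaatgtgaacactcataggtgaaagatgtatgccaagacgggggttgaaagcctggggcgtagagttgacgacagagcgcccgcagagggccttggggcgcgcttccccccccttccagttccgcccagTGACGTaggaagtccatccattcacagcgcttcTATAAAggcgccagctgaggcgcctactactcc

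TGACGT on either strand stood in 8 of 23 promoters of the list (34.8%), from Atf3, Btg2, Dusp1, Egr2, Fos and Nr4a3, against 6.47% of all promoters. Counted by gene, 6 of 19 (31.6%) held it, against 7.29% of all genes. It was not particular to this list. TGACGT also stood in 6 of 29 promoters of the TCA cycle list (20.7%) and 4 of 20 of complexes II to IV (20%). Among ribosomal protein promoters it stood in 13 of 68 (19.1%). TATAAA, searched on the gene's strand 45 to 20 bases before the start, stood in 1 of 23, that of Fos, against 2.01% of all.

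Interferon-stimulated genes followed a related but not equal order. H2-K1 and H2-D1 encode class I histocompatibility molecules, which show peptides to T cells, and B2m their light chain. B2m had 96.5, 163, 55.1, 41.9 and 37.2 CPM in replicates 1 to 5 and H2-K1 had 88.0, 164, 56.9, 41.3 and 31.8 CPM. Replicates 1 and 2 lay above the rest in 11 of 11 genes of this list at or above 10 CPM, against 13.7% of all genes. Replicates 4 and 5 were both below the rest in 7 of the 11 (63.6%) against 13.6%, whereas replicate 3, the lowest for 7 of 18 immediate early genes, was lowest for none. The summed share was 0.0685, 0.0884, 0.0424, 0.0333 and 0.0262%. The summed macrophage share was 0.00389, 0.00325, 0.00292, 0.00339 and 0.00246%, with replicate 4 above replicate 2. Replicates 1 and 2 lay above the rest in 6 of 10 fibroblast markers (60.0%) and 6 of 16 endothelial markers (37.5%). Class I genes and B2m are made by endothelial and other cells as well as by cardiomyocytes, and the part of those cells in the order was not tested.

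The B2m promoter is printed as the most abundant of 9 in the list that hold 2 copies of GAAA with any 2 bases between, a motif of the interferon-stimulated response element, marked in capitals (RefSeq, GRCm38.p6, 250 bases before the start, 5′ to 3′).
B2m promoter, chr2:122147437-122147686, plus strand: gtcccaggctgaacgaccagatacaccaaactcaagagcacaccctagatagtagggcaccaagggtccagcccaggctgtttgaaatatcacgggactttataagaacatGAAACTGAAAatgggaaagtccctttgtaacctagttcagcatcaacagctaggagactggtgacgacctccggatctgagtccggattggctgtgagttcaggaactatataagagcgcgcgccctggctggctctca

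The motif, searched on both strands, stood in 9 of 21 promoters of the list (42.9%) against 2.98% of all 32851.

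**Figure D5:**
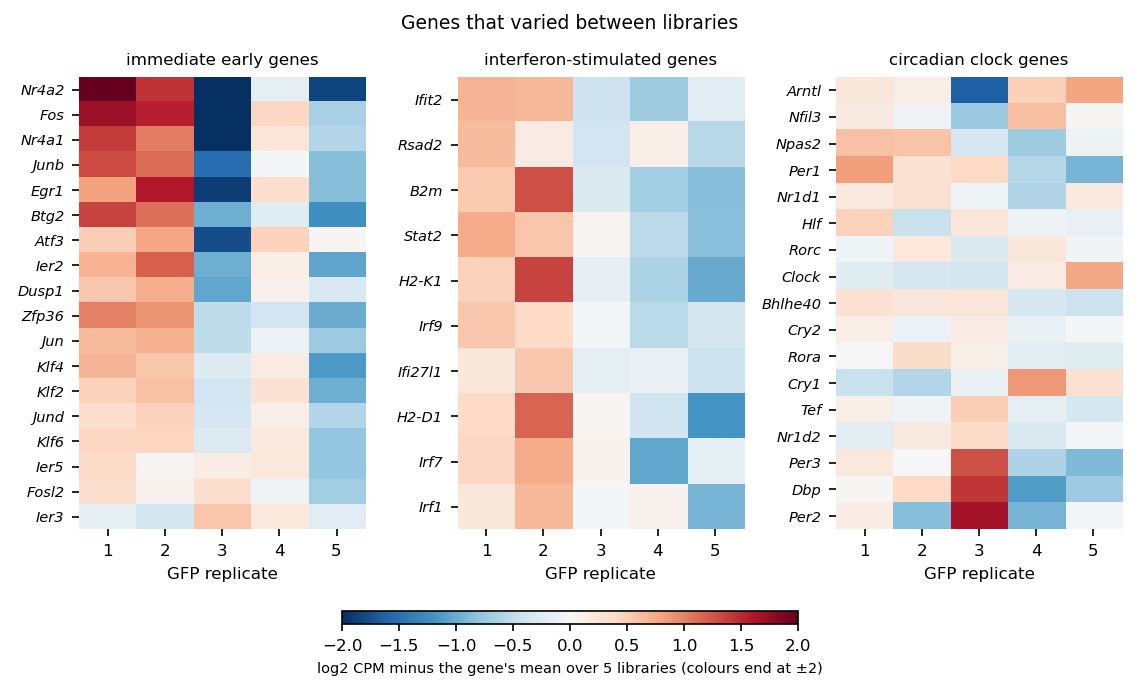
CPM on the log2 scale relative to each gene's mean over the 5 GFP libraries for genes at or above 10 CPM in 3 lists, 1 interferon-stimulated gene not shown (colours end at 2 in either direction). Immediate early genes other than Ier3 are lowest in replicate 3 or 5 and most are high in replicates 1 and 2, interferon-stimulated genes are high in replicates 1 and 2, and among clock genes replicate 3 has low Arntl beside high Per2, Per3 and Dbp.

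Some clock genes varied in opposite directions. The molecular clock is a loop in which Arntl and Clock activate the Per, Cry and Dbp genes. The Per and Cry products in turn repress that activation. Arntl had 29.8, 27.7, 8.19, 35.5 and 43.8 CPM in replicates 1 to 5, lowest in replicate 3. Per2 had 11.1, 5.54, 31.4, 5.21 and 9.77 CPM, Per3 26.7, 23.2, 56.0, 15.1 and 12.6 CPM and Dbp 19.3, 25.1, 51.2, 8.77 and 11.5 CPM. All 3 were highest in replicate 3, and Dbp, Per3 and Per1 were lower in replicates 4 and 5 than in the others. The clock genes given with values here were chosen after those were seen. Of 17 clock genes at or above 10 CPM, 6 were highest in replicate 3, against 1188 of all 8054 genes. Replicates 4 and 5 were both below the rest in 6 of the 17 (35.3%), against 13.6% of all genes. Cry1 was higher in replicates 4 and 5, with 41.6 and 28.1 CPM against 15.1 to 20.6 in the others. No source used here gives the hour at which hearts were taken, and the part of time of day in these differences was not tested. The E-box CACGTG, the known target of Arntl with Clock, stood on either strand in 6 of 21 clock gene promoters (28.6%; Bhlhe41, Ciart, Cry1, Per1 and Tef) against 6.02% of all. It stood at a like share in ATP synthase promoters (5 of 19, 26.3%) and in 4 of 23 promoters of immediate early genes (17.4%).

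Nuclear noncoding RNAs split the libraries in another way. Malat1 had 4903, 4909, 6617, 2252 and 2670 CPM in replicates 1 to 5, and Neat1, the scaffold of paraspeckles, had 1053, 1187, 1399, 513 and 772 CPM. Both were highest in replicate 3 and lower in replicates 4 and 5 than in any other library. Replicates 4 and 5 are also those with Xist and without Y-linked counts, so that sex and every other difference between these libraries and the rest cannot be told apart. Nppa followed a similar order, with 326, 454, 351, 106 and 151 CPM. Single genes stood out in single libraries: Cul3, a scaffold of ubiquitin ligases, had 35.8, 46.2, 30.5, 46.3 and 120 CPM, with replicate 5 apart, and Ptgds, which makes prostaglandin D2, had 48.4, 136, 87.0, 22.0 and 56.1 CPM.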

How the data were processed

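Raw read counts per gene and 1 gene length in bases per gene were taken as deposited by the authors. The submitters' processing notes name STAR, featureCounts, DESeq2, DESeq and the mouse build mm10, without versions, and how reads matching several genes were treated is not given in the sources used here. Per the labels, RNA was extracted with a PureLink micro-scale kit. The protocol text names SMART Seq v4 and Nextera XT, whereas the sample labels name SMART-Seq2 or SMART-Seq3. The authors' 2 deposited tables of comparisons with GFP were not used.

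Counts of GFP replicates 1 to 5 (groups from the sample labels) were scaled with TMM factors over these 5 libraries (edgeR 4.0.16, R 4.3.3). CPM was divided by the deposited length for values per kilobase, with 785 genes under 200 bases left out of that ranking. Family shares are summed counts in percent of the library total. Apart from the check of the vector genes, no groups were compared, and no level or share given comes from a test. Dixon's criterion was used only to mark single libraries, and a chi-square only to set library pairs against sampling noise. All 10 library pairs differed by more than sampling noise (chi-square per degree of freedom 10.7 to 30.0), and each was kept as a sample of its own. Dispersion was estimated with edgeR after its low-count filter and tested on simulated data. The alternatives were DESeq2 1.42.0 size factors, plain totals, other thresholds and denominators, and leaving out each library.

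The gene lists (48, with 1032 of 1048 entries found, matched by current or older symbol) and the set of libraries were chosen with earlier results of these data known. Named genes were the 30 highest per kilobase and 15 highest by counts, the leading 4 of each list, members under 1 CPM where few, the isoform pairs, members of the transcription factor and receptor lists, and the 15 most and 10 least variable genes from 50 CPM on. Other genes named were chosen after their values were seen. Dates stood in place of 25 gene names, and these genes were not named here. Promoter sequences and names came from RefSeq (GRCm38.p6), and shared 50-base words from GENCODE vM21 transcripts. A few list members are not reported here by name.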

Additional observations from a re-analysis of the deposited data

Results flagged for a closer look

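In each result named in the text, the highest or lowest of the 5 libraries was compared with its nearest neighbour by Dixon's criterion for 5 values (gap over range above 0.71). Chance marks about 1 in 20 such groups, and 25 of 287 results (8.71%) were marked here. Some of these results were named for their spread or after their values were seen, so that their rate cannot be set against chance. Among all 3262 genes at or above 50 CPM, 184 (5.64%) were marked, and replicate 5 set 89 of them, against 24, 35, 20 and 16 for replicates 1 to 4.

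Replicate 3 stood apart in atrial and fetal light chain genes. Myl7 was at 30.7 CPM there (next 13.3) and Myl4 at 19.7 CPM (next 8.76), and the heart isoform made up 98.8% of the Myl2 pair and 99.6% of the Myl3 pair, the lowest of the 5 libraries in both. The share of stress response genes was lowest there, at 0.0684% against 0.0892% in the next library. Per2 at 31.4 CPM and Ubqln4 at 137 CPM were highest in that library.

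Replicate 5 had the highest Cul3 at 120 CPM (next 46.3), Nebl at 212 CPM (next 136), Tbx20 at 221 CPM (next 122) and Tead1 at 60.7 CPM (next 39.7). It had the lowest Fxyd1 at 248 CPM (next 308) and Ddit3 at 12.6 CPM (next 15.1). In replicate 2 Pln at 6473 CPM, Ldhb at 2033 CPM, Eef1a1 at 67.3 CPM, Abcf1 at 106 CPM, Pttg1ip at 171 CPM and Beta-s at 15.4 CPM were highest. The mark of Adrb3 there, 0.126 CPM, rests on the only library with a count. The levels of Beta-s and Eef1a1 are uncertain because of shared sequence, as given above. Replicate 1 had the highest Chrm2 at 147 CPM (next 119) and Aurkb at 1.29 CPM, and the lowest calsequestrin share of Casq2, 94.6% (next 97.2%). Replicate 4 had the highest Myl1 at 34.9 CPM (next 18.4) and the lowest Tnni1 at 0.381 CPM (next 1.64).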

How the results depend on the processing

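Of 2189 recomputed values, 2002 moved by less than the spread between libraries (SD) or, for counts of genes, by less than 1.5-fold, among them all 126 for the isoform pairs. Most of the alternatives left out 1 library, which by arithmetic can hardly move a mean by as much as that SD. Ratios within a library do not depend on scaling either. The tally therefore says little about how stable the results are. None changed sign, since no difference was called. At thresholds of 0.5 and 5 CPM, 12418 and 9487 genes were counted in place of 11676 at 1 CPM. Per kilobase, 156 genes rather than 285 held 50% of the counts. The biological coefficient of variation was 19.6% in a fit of all 15 libraries. With the 10 most abundant genes left out of list and total, the shares were 1.71% (thick filament), 1.28% (thin filament), 1.72% (calcium cycling), 2.16% (complex I), 3.29% (complexes II to IV), 1.09% (ATP synthase), 3.49% (TCA cycle) and 3.27% (fatty acids), as lists lose leading members or the total shrinks. Per kilobase they were 5.49, 8.80, 2.17, 4.34, 6.82, 4.598, 2.81 and 3.01%. Leaving out 1 library gave 7.68 to 8.35%, 5.69 to 6.05%, 3.94 to 4.20%, 1.71 to 1.83%, 2.62 to 2.79%, 2.80 to 2.95%, 2.84 to 2.88% and 2.65 to 2.73% in that order. It gave 11619 to 11720 genes at 1 CPM, 282 to 288 genes holding 50% of the counts, a coefficient of variation of 15.6% (without replicate 5) to 18.1%, and 99.4 to 99.6% for Myh6. No paired analysis was possible because only 1 group enters the results and no groups were tested against each other. Genes under 10 CPM are limited by counting error.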
